A study of Mus musculus with 8 samples.

Results

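The 9 genes described here encode receptors by which neutrophils and their relatives are held in the bone marrow (BM), roll and adhere on vessel walls and follow chemical signals: the chemokine receptors Cxcr4 and Cxcr2, the selectin ligand Selplg, the integrin chains Itgam, Itgal, Itgb2 and Itga4, and the formyl peptide receptors Fpr1 and Fpr2. They were taken by name from the 41214 genes counted, and all 9 were found and passed the filter on low counts in every comparison. RNA of whole BM was sequenced from 8 C57Bl6 mice, 2 in each of 4 groups. KO mice are deficient for Gfi1, a zinc finger repressor of transcription. KD mice carry a knocked-in human GFI1 cDNA with a neo cassette, by which its expression is reduced, so that neither genotype is wild type and wild-type BM was not analysed here. Young KD mice were aged 39 and 42 days and young KO mice 48 and 44 days. For sick KD mice the ages were 187 and 78 days, and for old KO mice 158 and 101 days, so that disease and age cannot be told apart between sick and young KD mice, nor disease and genotype between sick KD and old KO mice. The sample labels call the disease of the sick KD mice AML, while the study describes a myeloproliferative disease.

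As background, CXCR4 binds the stromal chemokine CXCL12 and keeps myeloid cells in the marrow, whereas CXCR2 responds to chemokines made at vessels and inflamed sites and draws neutrophils into blood. Rolling begins when PSGL-1, the product of Selplg, binds selectins, and firm adhesion follows through the beta2 integrins LFA-1 (Itgal with Itgb2) and Mac-1 (Itgam with Itgb2) or through VLA-4 (Itga4 with Itgb1), which binds VCAM-1 and fibronectin. FPR1 and FPR2 are G-protein-coupled receptors for formylated peptides of bacteria and mitochondria, and FPR2 also binds annexin A1 and serum amyloid A. Neutrophils and monocytes share most of these receptors, and Gfi1 is needed for neutrophils to mature.

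Genes were counted from 26642067 to 42679114 times per library. Reads that the counting assigned to no gene feature made up 42% and 38.8% of uniquely aligned reads in sick KD and 26.9 to 33.8% elsewhere. This tally does not tell reads in introns from reads between genes. Gfi1 itself lay at 5.49 to 7.15 CPM (counts scaled to a common library size with edgeR's TMM factors) in the 4 libraries labelled KD and at 13.3 to 29.7 CPM in the 4 labelled KO. Because the KD allele is a human cDNA whose reads were not counted separately, these counts do not check the labels, and every direction between KO and KD rests on the labels. Ly6g, the defining surface marker of mature mouse neutrophils, was at most 0.545 CPM in every library. Other genes of maturing neutrophils were well counted, Mmp8 at 361 to 889, S100a8 at 73.2 to 2141 and S100a9 at 37.7 to 1111 CPM. Mpo, a gene of neutrophil precursors, lay at 2199 to 3469 CPM. Of the monocyte genes, Ccr2 lay between 1950 and 2812 CPM and Cx3cr1 between 81 and 218 CPM. Whole BM holds several of these cell types, so the receptors are described as genes of whole BM and not as genes of neutrophils.

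Between sick KD mice and the other groups, 3 of the 9 genes differed. The formyl peptide receptors Fpr1 and Fpr2 and the LFA-1 chain Itgal were higher in sick KD mice than in either young KD or old KO mice, comparisons in which 20.9% and 18.1% of all genes tested passed the same threshold (edgeR adjusted p under 0.05). The formyl peptide receptors were 2.83-fold (Fpr1) and 2.74-fold (Fpr2) higher than in young KD mice, and 5.28-fold and 4.45-fold lower in old KO than in sick KD mice. Cxcr4, Cxcr2, Selplg, Itgam, Itgb2 and Itga4 passed no test of the 4 comparisons. The plot of CPM by library shows both patterns. In whole BM, a higher share of cells that carry a transcript and more transcript per cell cannot be told apart.

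**Figure D1:**
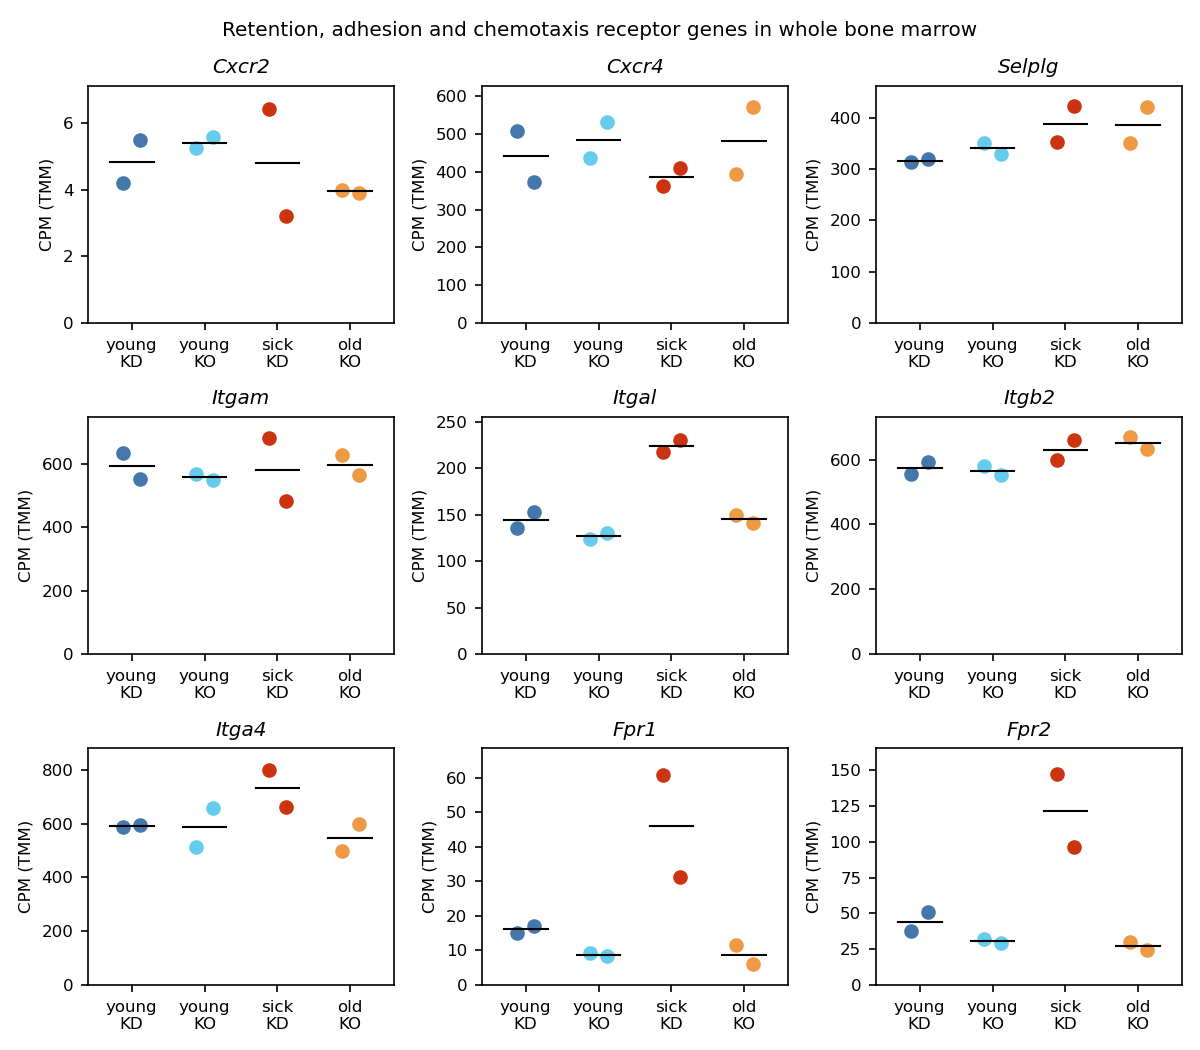
CPM (counts scaled to library size with TMM, linear axes from 0) of the 9 receptor genes, with 1 point per mouse (2 per group) and a line at the group mean. Both sick KD mice lie above the 6 other mice for Itgal, Itga4, Fpr1 and Fpr2, as they do for 24.6% of all genes. For Itga4, which passed no test, the margin is 663 against 659 CPM.

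Levels between genes were compared per length, as CPM per kilobase of exon (RPKM). Averaged over the 8 libraries, the order was Cxcr4 (248 RPKM), Itgb2 (198), Itgam (116), Selplg (83.7), Itga4 (44), Fpr2 (43.1), Itgal (24.4), Fpr1 (15) and Cxcr2 (1.56). Some neighbours in this order exchanged places between libraries. Itga4 exceeded Fpr2 in 6 of 8 libraries, Fpr2 being the higher in both sick KD mice, and Cxcr4 exceeded Itgb2 in 7 of 8. Itgb2 exceeded Itgam in all 8 libraries and Fpr1 exceeded Cxcr2 in all 8. The place of Selplg depended on the length used: with the longest transcript in place of all exons it reached 155 RPKM and Itgam 124. The retention receptor Cxcr4 was the most abundant of the 9 transcripts per length and the release receptor Cxcr2 the least abundant. Across libraries, the highest CPM was 10.1 times the lowest for Fpr1 and 6 times for Fpr2, against 1.22 to 2.01 times for the other 7 genes.

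The formyl peptide receptor genes carried the widest differences, and they are neighbours. On GRCm38, Fpr1 lies on chromosome 17 from 17876471 to 17883940 on the minus strand and Fpr2 from 17887824 to 17893952 on the plus strand, head to head with 3883 bases between their start sites. Their RefSeq promoters (GRCm38.p6, 250 bases before to 50 after the start site, read on the strand of each gene) are shown because these 2 genes move together and lie back to back at this locus. Capitals mark AATC, the core letters of the Gfi1 binding motif, on either strand. The Fpr1 window is chr17:17883890-17884189 (minus strand) and the Fpr2 window chr17:17887574-17887873 (plus strand).
Fpr1: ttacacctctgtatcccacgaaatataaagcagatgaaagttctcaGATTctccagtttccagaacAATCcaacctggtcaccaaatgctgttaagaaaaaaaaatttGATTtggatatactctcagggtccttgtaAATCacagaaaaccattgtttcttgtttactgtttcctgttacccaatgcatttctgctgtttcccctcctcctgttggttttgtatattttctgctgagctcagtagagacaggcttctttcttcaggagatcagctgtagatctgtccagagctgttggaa
Fpr2: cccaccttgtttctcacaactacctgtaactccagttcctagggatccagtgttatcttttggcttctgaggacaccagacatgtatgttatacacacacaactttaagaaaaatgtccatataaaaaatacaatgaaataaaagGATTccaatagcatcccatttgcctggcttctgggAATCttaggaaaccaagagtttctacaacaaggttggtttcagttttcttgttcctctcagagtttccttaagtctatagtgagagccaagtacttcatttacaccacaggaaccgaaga
The Fpr1 window held 4 matches and the Fpr2 window 2, while 73.1% of 32851 promoters of the same length held at least 1, with a mean of 1.56. The longer string TAAATCAC, chosen after the sequence had been seen and overlapping the core, occurred 1 time in the Fpr1 window, not in the Fpr2 window, and in 0.578% of all promoters. Neither window held GGAAGT (a PU.1 site, 23.8% of promoters) or TGANTCA (an AP-1 site, 7.81%). Promoters of 6 of the 9 genes were in the RefSeq table, and the core was found 3 times in that of Cxcr2, 1 time in that of Itga4 and not in those of Cxcr4 and Itgam. A match in letters is a description and not a measured binding site.

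Fpr1, the prototype receptor for formylated peptides, lay at 15.2 and 17.2 CPM in young KD mice, 9.13 and 8.28 CPM in young KO mice, 60.8 and 31.3 CPM in sick KD mice and 11.5 and 6.05 CPM in old KO mice. Both sick KD mice were above all others, although they differed 1.95-fold from each other. Both young KD mice were above both groups of KO mice. From young to sick KD mice the log2 fold change of Fpr1 was 1.50 (SE 0.30, 95% interval 0.78 to 2.22, edgeR adjusted p = 0.0205). From sick KD to old KO mice it was -2.40 (SE 0.39, interval -3.33 to -1.47, edgeR adjusted p = 0.0108). Leaving out a mouse moved the first from 0.95 to 1.91, the lowest without sick KD mouse 1, and the second from -2.91 to -1.84, and both passed the test each time.

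Fpr2, the receptor that also binds host ligands, was also highest in sick KD mice, at a higher CPM. It lay at 37.6 and 50.8 CPM in young KD mice, 32.2 and 29.2 CPM in young KO mice, 147 and 96.3 CPM in sick KD mice and 30.1 and 24.4 CPM in old KO mice. As for Fpr1, the groups of KD and KO mice did not overlap at either stage, which also held for 27% of all genes between young mice and 66% between old KO and sick KD mice. The log2 fold change of Fpr2 was 1.45 from young to sick KD mice (SE 0.23, interval 0.89 to 2.01, edgeR adjusted p = 0.0124) and -2.15 from sick KD to old KO mice (SE 0.22, interval -2.67 to -1.64, edgeR adjusted p = 0.00438). Both calls held with each mouse left out. In 50-base windows of the longest transcripts, 7.2% of those of Fpr2 were shared with Fpr1 or Fpr3 and 0.0784% of those of Fpr1 with Fpr2. Fpr3 shares exon sequence with Fpr2 on the same strand in GENCODE M21, so that reads in that sequence depend on the annotation used for counting. Fpr3 was counted at no more than 0.0356 CPM, which does not by itself show that it is absent.

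An interaction term fitted to the 8 mice asked whether the KO-to-KD difference itself changed from young to older mice. For Fpr2 it was -1.63 on the log2 scale (SE 0.31, edgeR adjusted p = 0.0263), that is, the deficit of KO against KD mice was larger between old KO and sick KD mice than between young mice. This was the only one of the 9 genes called, where 7.43% of all genes were called, 4.32% with a higher and 3.11% with a lower value. The call of Fpr2 was lost when any 1 of 6 of the 8 mice was left out (adjusted p 0.0137 to 0.0929 over all 8 omissions), and it held only without sick KD mouse 2 or without young KD mouse 2. Fpr1 had a similar estimate of -1.51 (SE 0.49) that missed the threshold by edgeR (adjusted p = 0.0943) and passed it by DESeq2 (adjusted p = 0.00789). For Itgal the interaction was -0.44 (SE 0.13, edgeR adjusted p = 0.08), which also missed it, though not once trends in GC content and length were removed (-0.60, edgeR adjusted p = 0.0221).

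Among young mice, KO against KD, 0 of the 9 receptor genes passed edgeR's adjusted threshold, which 0.0404% of all genes did. At an unadjusted p under 0.05 the 2 formyl peptide receptors were lower in young KO mice, against 2.66% of all genes, and DESeq2's adjusted threshold called Fpr1 alone, against 0.217% of all genes. The log2 fold change of Fpr1 was -0.90 (SE 0.13, interval -1.21 to -0.58, edgeR adjusted p = 0.478, DESeq2 adjusted p = 0.000761), a 1.86-fold lower level. For Fpr2 it was -0.53 (SE 0.15, interval -0.90 to -0.15, edgeR adjusted p = 1, DESeq2 adjusted p = 0.535). Without the filter on low counts edgeR called both. Between old and young KO mice 0 of the 9 genes were called by edgeR, by edgeR at an unadjusted p under 0.05 or by DESeq2, where 0.929%, 8.86% and 2.47% of all genes were. The interval of Fpr1 was wide, from -0.76 to 0.75, with that of Fpr2 from -0.49 to 0.14.

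**Figure D2:**
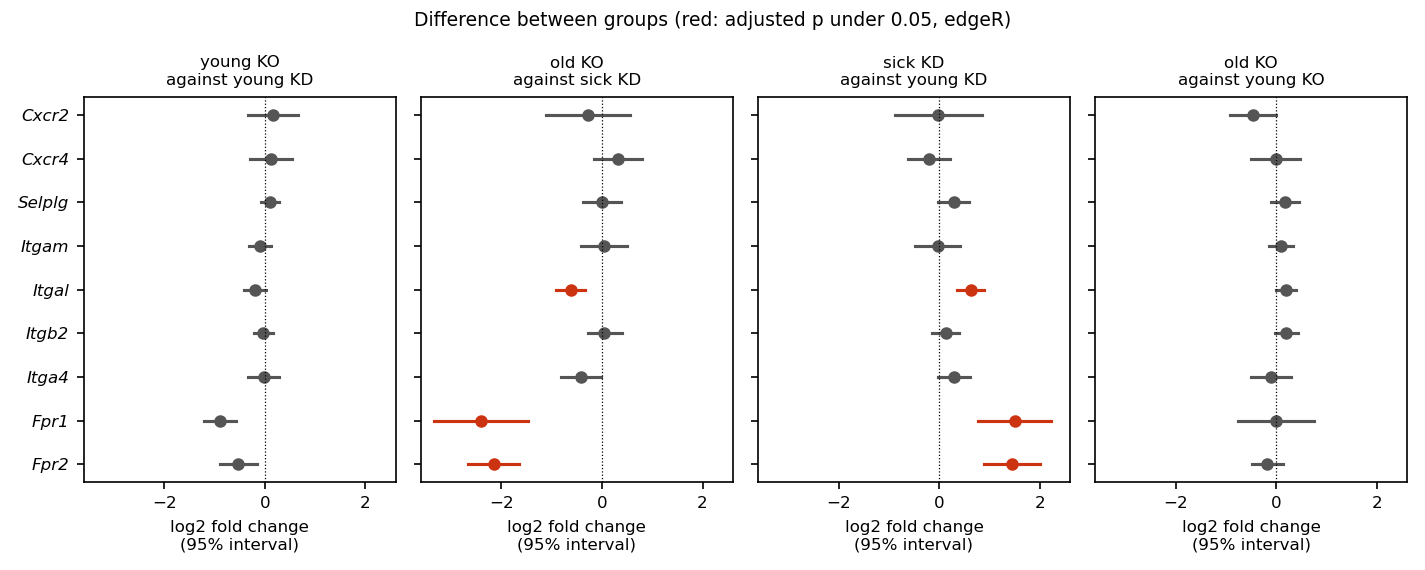
Log2 fold change (points) and 95% interval (lines) of the 9 genes in 4 comparisons of 2 against 2 mice, with red for an edgeR adjusted p under 0.05. Itgal, Fpr1 and Fpr2 are red in both comparisons that involve sick KD mice and none is red in the other comparisons.

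Of the 3 beta2 integrin genes among the 9, only Itgal passed a test. Differences between the 3 were not tested except for the ratio of Itgam to Itgal. Outside the 9, Itgad and Itgax also encode beta2 integrin alpha chains and went the other way, at no more than 19.1 CPM. Itgad was lower in sick than in young KD mice (-1.50, edgeR adjusted p = 0.0143) and higher in old KO than in sick KD mice (2.07, adjusted p = 0.00756). For Itgax these were -0.98 (edgeR adjusted p = 0.0951) and 1.69 (adjusted p = 0.0452). Itgal lies on chromosome 7 from 127296260 to 127335138 on the plus strand (GRCm38), 728 kb from Itgam. Itgal, which encodes the alpha chain of LFA-1 (CD11a), lay at 136 and 153 CPM in young KD mice, 124 and 130 CPM in young KO mice, 218 and 231 CPM in sick KD mice and 150 and 141 CPM in old KO mice. The sick KD mice stood above the others and close to each other. Itgal rose by 0.63 on the log2 scale from young to sick KD mice (SE 0.11, interval 0.36 to 0.90, edgeR adjusted p = 0.0162), a 1.55-fold difference, and was lower by the inverse, -0.62, in old KO than in sick KD mice (SE 0.12, interval -0.91 to -0.33, edgeR adjusted p = 0.0188). Its call against young KD mice was lost without young KD mouse 1 (value 0.54, adjusted p = 0.171), and its call against old KO mice was lost without either old KO mouse (adjusted p up to 0.104).

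Itgam, the alpha chain of Mac-1 (CD11b) and a common marker of myeloid cells, lay at 634 and 552 CPM in young KD mice, 567 and 551 CPM in young KO mice, 683 and 482 CPM in sick KD mice and 629 and 565 CPM in old KO mice. The 2 sick KD mice were the highest and the lowest of all 8, and the groups of KD mice overlapped. Its log2 fold change was -0.03 (interval -0.48 to 0.41) from young to sick KD mice and 0.04 (interval -0.42 to 0.50) from sick KD to old KO mice, intervals that leave out a change as large as that of Itgal.

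Itgb2, the beta chain (CD18) common to both, lay at 556 and 591 CPM in young KD, 579 and 551 in young KO, 598 and 659 in sick KD and 671 and 631 in old KO mice, with log2 fold changes of 0.13 (interval -0.15 to 0.40) from young to sick KD mice and 0.05 (interval -0.28 to 0.39) from sick KD to old KO mice. The counts of Itgam and Itgal within a library need no scaling between libraries. Itgam shares exon sequence on its strand with Gm49368 in GENCODE M21, so that reads in that sequence depend on the annotation used for counting. The ratio of Itgam to Itgal was 3.14 and 2.08 in sick KD mice and 3.61 to 4.66 in the 6 others. The difference in log2 ratio between sick and young KD mice was -0.68 and that between old KO and sick KD mice 0.68, each with p = 0.333 by a two-sided exact permutation test, the smallest p that 2 mice against 2 can give.

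Itga4, the alpha chain of VLA-4, lay at 588 and 596 CPM in young KD mice, 514 and 659 CPM in young KO mice, 801 and 663 CPM in sick KD mice and 497 and 600 CPM in old KO mice. Both sick KD mice were above the others, the lower by little. The log2 fold change was 0.30 (interval -0.02 to 0.61, edgeR adjusted p = 0.149) from young to sick KD mice and -0.41 (interval -0.81 to -0.01, edgeR adjusted p = 0.13) from sick KD to old KO mice, neither past the threshold, although the first passed without sick KD mouse 2 (0.43, edgeR adjusted p = 0.0277). It was 0.16 without sick KD mouse 1 (edgeR adjusted p = 0.254). With trends in GC content and length removed the first was 0.15 and the second -0.15 (edgeR adjusted p = 0.39). Itga4 overlaps Cerkl on the opposite strand, and 10.8% of its 50-base windows occur in other counted genes.

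Cxcr4, the receptor of the retention signal CXCL12, overlapped between groups throughout. It lay at 509 and 373 CPM in young KD mice, 436 and 532 CPM in young KO mice, 362 and 411 CPM in sick KD mice and 393 and 570 CPM in old KO mice. Old KO mouse 2 was the highest and sick KD mouse 1 the lowest, and the groups overlapped in all 4 comparisons. Its log2 fold change was -0.20 (interval -0.61 to 0.22) from young to sick KD mice and 0.32 (interval -0.15 to 0.79, edgeR adjusted p = 0.292) from sick KD to old KO mice. Cxcr2 was counted only 90 to 231 times per library, at 4.19 and 5.49 CPM in young KD, 5.25 and 5.57 in young KO, 6.42 and 3.2 in sick KD and 3.98 and 3.91 in old KO mice. The sick KD mice again spanned the whole range, and the interval of Cxcr2 was wide, from -0.88 to 0.85 between young and sick KD mice. Cxcr4 had 56.4 to 146 times the counts of Cxcr2, the lowest ratio being that of sick KD mouse 1 and the highest that of old KO mouse 2, and this ratio separated none of the KD from the KO groups.

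Selplg, whose product PSGL-1 binds P-, E- and L-selectin, lay at 313 and 319 CPM in young KD mice, 351 and 330 CPM in young KO mice, 353 and 422 CPM in sick KD mice and 351 and 421 CPM in old KO mice. The lowest values were those of the young KD mice, and sick KD and old KO mice had nearly the same pair of values. The log2 fold change was 0.29 (interval -0.02 to 0.59, edgeR adjusted p = 0.15) from young to sick KD mice and -0.00 (interval -0.38 to 0.38) from sick KD to old KO mice. The first passed without sick KD mouse 1 (0.41, edgeR adjusted p = 0.0374) and with trends in GC content and length removed (0.37, edgeR adjusted p = 0.0286), and was 0.16 without sick KD mouse 2 (edgeR adjusted p = 0.254). Selplg lies on chromosome 5, as does the altered Gfi1 locus, 6.09 Mb away.

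Counted over the 9 genes, 3 were higher in sick than in young KD mice and 0 lower, where 20.9% of all 14656 genes tested were called, 9.45% of all genes being higher and 11.4% lower. Between old KO and sick KD mice 3 were lower and 0 higher, where 18.1% of 14470 genes were called, 9.93% higher and 8.22% lower. These comparisons share the sick KD mice, so their calls are not independent. The median log2 fold change of the 9 genes was 0.29 from young to sick KD mice (all genes 0.01), -0.28 from sick KD to old KO mice (all genes -0.00) and -0.03 between young mice (all genes -0.01). Groups without overlap were common among all genes. They were found for 6 of the 9 genes between sick and young KD mice against 66.7% of all genes, for 4 between old KO and sick KD mice against 66%, for 4 between young mice against 27% and for 4 between old and young KO mice against 37.7%.

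The partners of these receptors were read from a list of 110 other trafficking genes, of which 97 were tested. From young to sick KD mice 16 rose and 12 fell (20.9% of all genes differing). Between sick KD and old KO mice 14 were higher and 10 lower in old KO (18.1% of all genes differing). Between young mice 0 passed (0.0404% of all genes), and between old and young KO mice 2 were higher (Selp and Itgae) and 1 lower (Dpp4), where 0.929% of all genes differed. These counts changed when a mouse was left out, as did the counts over all genes. The plot of the trafficking list by role shows these differences.

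Of 3 tested genes for host ligands of FPR2, 2 were higher in sick than in young KD mice and 2 lower in old KO than in sick KD mice, where 20.9% and 18.1% of all genes differed. Saa3, a serum amyloid A, lay at 1.91 and 3.41 CPM in young KD mice, 31.3 and 22.8 CPM in sick KD mice and 1.87 and 1.3 CPM in old KO mice, with log2 fold changes of 3.35 (SE 0.30, edgeR adjusted p = 0.00414) from young to sick KD mice and -4.10 (SE 0.27, adjusted p = 0.00265) from sick KD to old KO mice, both the widest of the list. Anxa1, which encodes annexin A1, lay at 400 and 404, 756 and 628, and 446 and 385 CPM in the same groups (log2 fold changes 0.78 and -0.73, edgeR adjusted p = 0.0137 and 0.0257). Camp, the third tested gene of this sublist and the precursor of an FPR2-binding peptide, did not pass (0.16 and -1.28), and the other formyl peptide receptor genes listed were at or near 0. Ccr1, a receptor for CCL3 and CCL5 on phagocytes, lay at 411 and 303 CPM in sick KD against 103 to 152 CPM in the 6 other libraries (log2 fold changes 1.40 and -1.65, edgeR adjusted p = 0.00903 and 0.00504). Among 13 tested chemoattractant receptors of its sublist it was the 1 that rose from young to sick KD mice, while 3 fell. Of the 13, 3 were higher and 3 lower in old KO than in sick KD mice. Cx3cr1, the fractalkine receptor, went the other way from Ccr1, with 153 and 195 CPM in young KD, 81 and 104 CPM in sick KD and 218 and 201 CPM in old KO mice (-0.92 and 1.18, edgeR adjusted p = 0.0182 and 0.00628). So did Ptafr, the receptor for platelet-activating factor (-0.63 and 0.87, edgeR adjusted p = 0.0357 and 0.0366).

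Ligands on the retention and adhesion side moved in both directions in sick KD mice. Cxcl12, the ligand of CXCR4, lay at 53.7 and 51.8 CPM in young KD mice, 14.2 and 9.39 CPM in sick KD mice and 91.6 and 54.8 CPM in old KO mice (log2 fold changes -2.17, SE 0.20, and 2.64, SE 0.29, edgeR adjusted p = 0.00414 and 0.00496), and its receptor passed neither test. Vcam1, a ligand of VLA-4, lay at 49.6 and 59.5, 29.6 and 25.7, and 87.7 and 63.8 CPM in the same groups (-0.99 and 1.46, edgeR adjusted p = 0.00949 and 0.00532). Icam1, a ligand of LFA-1 and Mac-1, was higher in old KO than in sick KD mice (0.72, edgeR adjusted p = 0.0375) and missed the threshold from young to sick KD mice (-0.60, adjusted p = 0.0776). Fn1, fibronectin, went the other way, from 1580 and 1655 CPM in young KD mice to 3620 and 2993 in sick KD mice (1.02 and -0.90, edgeR adjusted p = 0.00802 and 0.0219). Of 9 tested endothelial and stromal ligands, 2 rose and 3 fell from young to sick KD mice, where 20.9% of all genes differed. In old KO against sick KD mice 4 were higher and 1 lower, where 9.93% of all genes were higher and 8.22% lower.

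Selectins and their ligands moved in both directions. Selp, P-selectin, lay at 8.01 and 12.8 CPM in young KD, 19.4 and 16.9 in young KO, 37.3 and 42.5 in sick KD and 35.6 and 32.5 in old KO mice, higher in sick than in young KD mice (1.93, SE 0.23, edgeR adjusted p = 0.00608) and in old than in young KO mice (0.90, SE 0.11, adjusted p = 0.0355). St3gal6, a sialyltransferase that makes selectin ligands, fell from 18.5 and 13.1 CPM in young KD mice to 2.75 and 3.06 CPM in sick KD mice (-2.45, edgeR adjusted p = 0.00421). It was higher in old KO than in sick KD mice (2.22, edgeR adjusted p = 0.00493). Young KO mice had 13.4 and 14.7 CPM and old KO mice 15.4 and 11.6 CPM (-0.06). The sphingosine 1-phosphate receptor S1pr1, which guides cells out of tissue, fell from 21.1 and 18.2 to 3.51 and 1.74 CPM between young and sick KD mice (-2.92, edgeR adjusted p = 0.00519). The integrin chain Itga9 fell from 10 and 9.68 to 1.66 and 1.6 CPM (-2.60, adjusted p = 0.00327). In young and then old KO mice S1pr1 lay at 16.2 and 19.1, then 7.86 and 12.6 CPM, and Itga9 at 7.57 and 9.38, then 4.12 and 3.24 CPM. These lower values in old KO mice did not pass (-0.79 and -1.21, edgeR adjusted p = 0.355 and 0.109). Of 12 tested other integrin chains, 2 rose and 2 fell from young to sick KD mice (20.9% of all genes differing), and 5 were higher and 0 lower in old KO than in sick KD mice (9.93% of all genes higher). Among 20 tested genes of integrin activation and signalling, 2 rose and 2 fell from young to sick KD mice (20.9% of all genes), and 0 were higher and 1 lower in old KO than in sick KD mice (18.1% of all genes). Among those that rose was Apbb1ip, the adaptor RIAM, at 40.4 and 56.7 CPM in young KD and 117 and 90.4 CPM in sick KD mice (1.09, edgeR adjusted p = 0.0165).

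**Figure D3:**
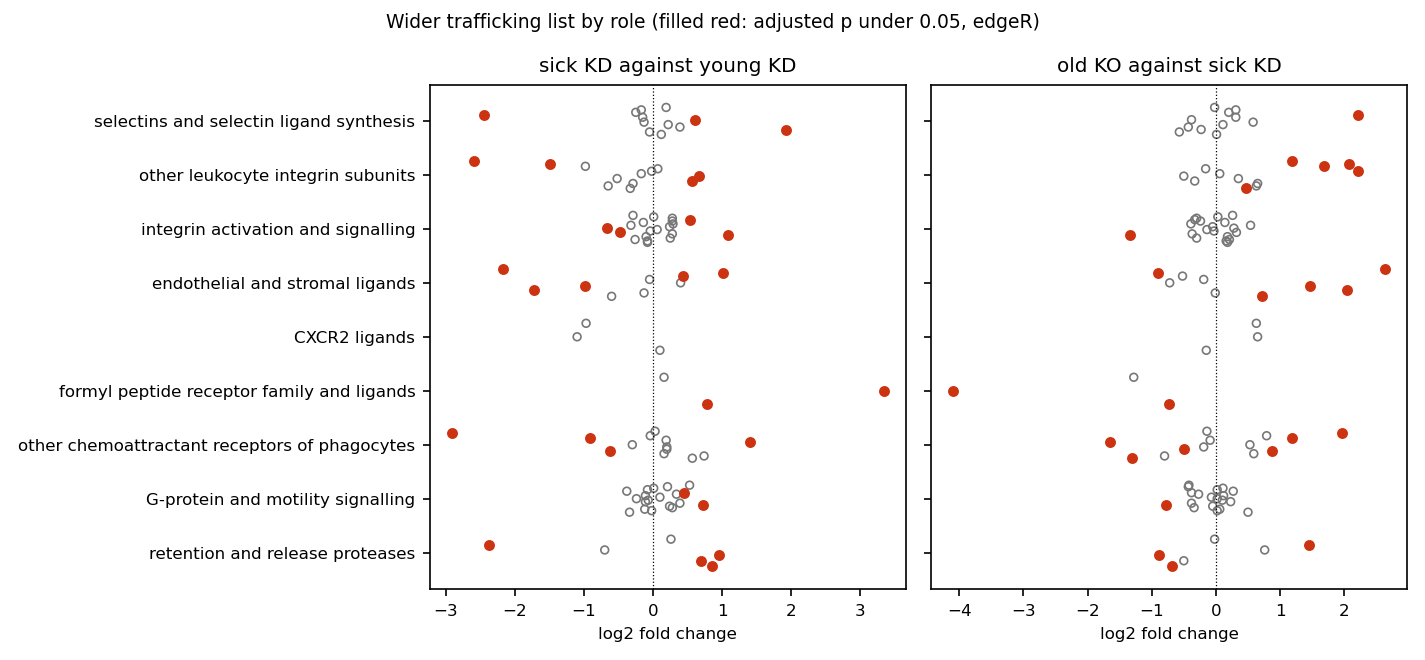
Log2 fold change of the 97 tested genes of the trafficking list, 1 point per gene and 1 row per role, for sick KD against young KD mice (left) and old KO against sick KD mice (right), with filled red points for an edgeR adjusted p under 0.05. Among formyl peptide receptor ligands Saa3 and Anxa1 lie right of 0 in sick KD against young KD mice (3.35 and 0.78) and left of 0 in old KO against sick KD mice (-4.10 and -0.73).

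Markers of cell types moved with these groups. From young to sick KD mice, where 20.9% of all genes differed, 4 of 5 tested genes of neutrophil precursors rose and 0 fell. Of 8 genes of maturing neutrophils 1 rose and 1 fell, and of 5 monocyte genes 1 rose and 1 fell. For stem and progenitor cells 1 of 4 rose and 0 fell. In the same comparison 5 of 6 macrophage genes, 7 of 7 B cell genes, 2 of 7 T and NK cell genes and 5 of 5 erythroid genes fell and 0 rose. Of the last lists, 0 of 4 megakaryocyte and 0 of 4 eosinophil and basophil genes passed. In old KO against sick KD mice (18.1% of all genes differing), 2 of 5 neutrophil precursor genes were lower and 0 higher. Of 7 tested maturing neutrophil genes 3 were lower and 1 higher. Higher, with 0 lower, were 1 of 5 monocyte, 5 of 6 macrophage and 2 of 7 B cell genes. So were 3 of 7 T and NK cell, 5 of 5 erythroid and 3 of 4 eosinophil and basophil genes. Megakaryocyte and stem cell genes (4 each) were not called. The summed CPM of 5 genes of neutrophil precursors was 6284 to 7039 in sick KD, 4245 to 5494 in old KO, 4316 to 4712 in young KD and 4671 to 5148 in young KO mice. For 8 genes of maturing neutrophils the sum was 1557 to 4214 CPM in sick KD, 568 to 654 in old KO, 1211 to 1457 in young KD and 1070 to 1150 in young KO mice. Most of it came from Mmp8, S100a8 and S100a9. S100a8 lay at 2141 and 646 CPM in the sick KD mice against 73.2 and 132 CPM in the old KO mice, while the other 5 genes stayed at or below 38 CPM. Monocyte genes (5) summed to 8276 to 8881 CPM in sick KD, 7697 to 7737 in old KO, 5669 to 7330 in young KD and 6462 to 7548 in young KO mice. Those of macrophages (6) summed to 189 to 215 CPM in sick KD, 308 to 382 in old KO, 205 to 256 in young KD and 239 to 277 in young KO mice. B cell genes (7) summed to 35.3 to 80 CPM in sick KD, 108 to 156 in old KO, 540 to 648 in young KD and 462 to 567 in young KO mice. Erythroid genes (5) summed to 516 to 789, 2370 to 3645, 1165 to 3181 and 1083 to 2735 CPM. The sums for T and NK cells lay between 62.9 and 84.7 CPM, for megakaryocytes and platelets between 52 and 239 and for stem and progenitor cells between 178 and 290. Eosinophil and basophil genes (4) summed to 322 to 372 CPM in sick KD, 666 to 1119 in old KO, 422 to 435 in young KD and 508 to 517 in young KO mice. From young to old KO mice (0.929% of all genes differing) 7 of 7 B cell genes fell. Of 7 tested genes each, 2 of maturing neutrophils and 1 of T and NK cells fell, and 0 genes of any list rose. The part of these cell types in the levels of the receptors was not tested. Nor was that of the higher share of reads assigned to no gene feature in sick KD libraries.

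Across the 8 libraries, which fall into groups, the log2(CPM + 1) values of Fpr1 and Fpr2 had a Pearson r of 0.98, and those of Itgal an r of 0.87 with Fpr1 and 0.91 with Fpr2, as a description of libraries that share the sick KD pair. Among 9913 protein-coding genes with a mean of at least 5 CPM, the gene most like Fpr2 was Wdr70 (r = 0.997) and the gene most like Fpr1 was Lrrk2 (0.986). Itgal was most like Zfp609 (0.991), Itga4 like 9930021J03Rik (0.991), Itgb2 like Ext2 (0.986), Itgam like Tsc1 (0.926), Selplg like Gm2a (0.983), Cxcr4 like Sema4a (0.966) and Cxcr2 like Zfp160 (0.973). The 9 genes were left out of these candidates, so none of them could be nearest to another of the 9.

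**Figure D4:**
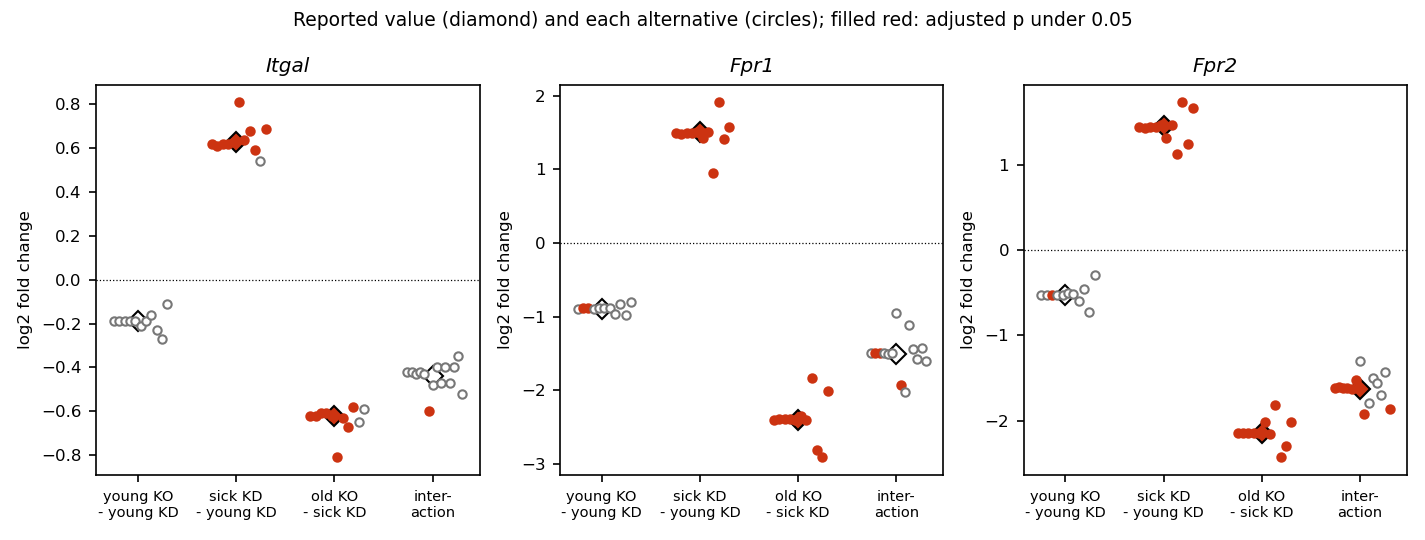
Log2 fold change of Itgal, Fpr1 and Fpr2 in 3 comparisons and in the interaction, as reported (diamonds) and under each alternative, including each mouse left out (circles), filled red where the adjusted p was under 0.05. No plotted value changes sign, and Fpr1 and Fpr2 stay red in both comparisons with sick KD mice.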

How the data were processed

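RNA-seq of whole BM from 8 mice was used. Per the methods and labels, the authors made strand-specific libraries of poly(A) RNA, aligned reads to mm10 with TopHat 2.0.10, counted them per Ensembl gene with HTSeq and deposited raw counts, which were used as such. The Ensembl release and the strand setting are not given in the sources used here. All 8 file names give the same sequencing run. The 5 tallies of unassigned reads in each file were left out. Symbols (40254 of 41214 genes), lengths and coordinates came from GENCODE M21 on GRCm38.

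The tests used edgeR 4.0.16 under R 4.3.3 (TMM, filterByExpr, quasi-likelihood test, Benjamini-Hochberg adjusted p under 0.05 over all genes tested). Each comparison was fitted on its own 4 mice and the interaction on all 8. SE is the absolute log2 fold change over the square root of F. Nothing tells how the 2 mice of a group were bred, so p-values measure only the spread between these samples. Alternatives were DESeq2 1.42.0, its size factors, filters of 1 count in any or 10 in every mouse, leaving out the 50 genes with most counts, removing trends in GC content and length, all 8 mice together and each mouse left out. Scripts were tested on simulated data.

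The 9 genes and all lists were chosen with earlier results of these data known. From the wider list the rule named the 2 genes with the largest called change in each direction per comparison. The other trafficking genes named were chosen after their values were seen, as ligands or partners of the receptors.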

Additional observations from a re-analysis of the deposited data

Results flagged for a closer look

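The KO-to-KD difference of Fpr2 between old KO and sick KD mice differed from that between young mice by -1.63 on the log2 scale in a test of the interaction over 8 mice (edgeR adjusted p = 0.0263). Within young mice the difference was -0.53 and between old KO and sick KD mice -2.15, the first with an edgeR adjusted p = 1. Both KO mice were below both KD mice each time, as 27% of all genes separated young KO from young KD mice and 66% old KO from sick KD mice, in either direction. The call of the interaction was lost in 6 of the 8 fits that left out a mouse.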

How the results depend on the processing

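The calls of Fpr1 and Fpr2 against sick KD mice held under all 7 other settings and with each mouse left out, and those of Itgal under all 7 settings but not with every mouse left out. Of 306 values recomputed under other settings 289 kept direction and side of the threshold, 7 newly passed it and 10 changed sign, and of 216 with a mouse left out 174 kept both, 9 were lost, 3 newly passed and 30 changed sign. The causes were not tested. No paired analysis was possible because the groups share no mouse numbers in the labels. A mouse left out leaves its group with 1 mouse, assumed to vary like the other group. The alternatives for the trafficking list were chosen after seeing the data.

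Of the 9 genes, young KO and KD mice differed in 0, but in 1 by DESeq2 and 2 without a filter. The interaction called 1, but 2 by DESeq2, without a filter and with trends in GC content and length removed, and 0 to 2 with a mouse left out. Of the trafficking list, old KO and sick KD mice differed in 24 genes, but 37 by DESeq2, 40 without a filter, 38 with trends removed and 38 with all 8 mice fitted together. Without a filter 1 gene differed between young mice, and 7 between old and young KO mice, where removing trends left 1 and leaving out a mouse 0 to 2. Between sick and young KD mice 28 differed, 39 with trends removed and 16 to 40 with a mouse left out. The interaction called 15, but 25 by DESeq2, 33 without a filter, 24 with trends removed and 2 to 19 with a mouse left out. Of all genes, 6 of 14839 differed between young mice, 29 of 13384 by DESeq2 and 119 of 21861 without a filter. Between old KO and sick KD mice 2626 of 14470 differed. By DESeq2 3055 of 14127 did, without a filter 4325 of 21700, with trends removed 3724 and with all mice together 4200 of 15102. From young to sick KD mice 3063 of 14656 differed, and 4506 with trends removed. Between old and young KO mice 138 of 14847 differed, 382 of 15448 by DESeq2, 796 of 21783 without a filter and 87 with trends removed. The interaction called 1122 of 15102, 1922 of 13650 by DESeq2, 2919 of 23025 without a filter and 1954 with trends removed. Under these settings the counts of the list moved in the same direction as those of all genes, so nothing particular to the list is read from them.

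Values near 0 that changed sign and passed under no setting were, with trends removed, Itga4 between young mice (0.022), Itgam (-0.085) and Itgb2 (-0.093) between old KO and sick KD mice, Cxcr2 (0.017) and Itgam (0.082) between sick and young KD mice and Itgb2 in the interaction (-0.034). Selplg between old KO and sick KD mice was 0.0063 by DESeq2, 0.012 without a filter and 0.0069 with a minimum of 10 counts, the minimum at which Fpr1 between old and young KO mice was 0.00055. With a mouse left out, between young KO and KD mice, values ran for Cxcr2 from -0.023 to 0.37, Cxcr4 from -0.076 to 0.37, Itgam from -0.19 to 0.016, Itgb2 from -0.067 to 0.021 and Itga4 from -0.21 to 0.15. Between old KO and sick KD mice, they ran for Cxcr2 from -0.70 to 0.30, Selplg from -0.14 to 0.13, Itgam from -0.19 to 0.31 and Itgb2 from -0.014 to 0.12. Between sick and young KD mice, they ran for Cxcr2 from -0.60 to 0.40, Cxcr4 from -0.43 to 0.037 and Itgam from -0.31 to 0.20. Between old and young KO mice, they ran for Cxcr4 from -0.30 to 0.24, Itga4 from -0.27 to 0.097 and Fpr1 from -0.53 to 0.39. In the interaction, they ran for Cxcr2 from -0.88 to 0.14, Cxcr4 from -0.11 to 0.43, Selplg from -0.25 to 0.014 and Itgam from -0.12 to 0.40. Cxcr2 had the fewest counts of the 9 genes, 90 to 231 per library, and with 2 mice a group the spread between mice limits every value. Of all genes, with a mouse left out 2 to 8 differed between young mice, 1221 (without sick KD mouse 1) to 2795 between old KO and sick KD mice, 1316 (without young KD mouse 1) to 3401 between sick and young KD mice (3063 with all), 17 to 307 between old and young KO mice and 106 to 1614 in the interaction.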

Other observations

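Of 6 tested genes of the protease sublist, 3 rose (Elane, Ctsg and Mmp8) and 1 fell (Dpp4) from young to sick KD mice, where 20.9% of all genes differed, and 1 was higher and 2 were lower in old KO than in sick KD mice, where 18.1% did. Elane and Ctsg also stand in the marker list of neutrophil precursors and Mmp8 in that of maturing neutrophils, lists whose summed CPM was highest in sick KD mice, and their part was not tested. Elane, neutrophil elastase, lay at 534 and 623 CPM in young KD mice, 962 and 1152 CPM in sick KD mice and 563 and 741 CPM in old KO mice (log2 fold change 0.86 from young to sick KD mice, edgeR adjusted p = 0.0136, and -0.69 from sick KD to old KO mice, adjusted p = 0.0455). Mmp8, neutrophil collagenase, lay at 361 and 406, 889 and 598, and 395 and 408 CPM in the same groups (0.95 and -0.89, edgeR adjusted p = 0.0233 and 0.0289). Dpp4, a peptidase that inactivates CXCL12, fell from 71.5 and 67.3 CPM in young KD mice to 10 and 16.6 CPM in sick KD mice (-2.38, edgeR adjusted p = 0.00423) and lay at 37.6 and 35.2 CPM in old KO mice. Mmp9, gelatinase B, was at 1.67 to 8.39 CPM in all 8 libraries and passed neither test.

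In the signalling genes downstream of the chemoattractant receptors, Pik3cg, the phosphoinositide 3-kinase activated by G-protein beta and gamma subunits, lay at 378 and 330 CPM in sick KD mice against 198 to 229 CPM in the 6 others (0.72 from young to sick KD mice, edgeR adjusted p = 0.016, and -0.78 from sick KD to old KO mice, adjusted p = 0.0129). Of the 19 tested genes of that sublist, 2 rose from young to sick KD mice, Pik3cg and the actin regulator Coro1a (0.45, edgeR adjusted p = 0.0497), and 0 fell, where 20.9% of all genes differed. In old KO against sick KD mice 0 were higher and 1 was lower, where 18.1% of all genes differed. Nothing particular to the sublist is read from these counts.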
